A study of Arabidopsis thaliana with 8 samples.

Results

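The CBF genes of Arabidopsis thaliana are CBF2 (AT4G25470), CBF3 (AT4G25480) and CBF1 (AT4G25490), named here in the order in which they stand on chromosome 4. They are 3 of the 27444 protein-coding genes of the nuclear chromosomes in the gene table used, and were chosen by identifier. Every listed ATAC-seq peak that overlapped one of the genes or the 1000 bp on either side was counted, which gave 42 peaks over 8 libraries. ATAC-seq reads out open chromatin, because the Tn5 transposase inserts sequencing adapters into DNA that nucleosomes leave exposed. The libraries came from shoots of seedlings of RIL149 and RIL50, 2 recombinant inbred lines of Ler × Cvi. Such lines carry a fixed mixture of the genomes of their parents, here Landsberg erecta and the Cape Verde Islands accession. The series describes them as contrasting in their spontaneous CG epimutation rates. The groups were generation 10 and generation 3 of RIL149 (G10 and G3) and the same generations of RIL50, with 2 libraries each, 1 from lineage 1 and 1 from lineage 2. All plants grew on plates at 25 °C in long days for 7 to 9 days, and no cold treatment is named. Each line is a single genotype, and the labels do not say how many plants a library holds, so p-values measure only the spread between these libraries.

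CBF proteins are transcription factors of the AP2/ERF family, also called DREB1 proteins. In the cold the CBF genes are switched on quickly, and their products bind the CRT/DRE element in front of cold-regulated (COR) genes, whose products protect cells against freezing. Upstream, the bHLH protein ICE1 and CAMTA proteins activate CBF genes, clock proteins gate them by time of day, and MYB15, EIN3 and PIF proteins restrain them. CBF2 is listed in the gene table under the name of a freezing tolerance locus, FTQ4, which was mapped in a cross of Ler and Cvi, and the Cvi allele of CBF2 is known for a deletion in its promoter. Which parental allele RIL149 and RIL50 carry at the cluster was not determined here, nor was whether any peak lies in the CBF2 promoter. The peaks are placed on TAIR10, the genome of a further accession, Columbia, so a closed site and a sequence that differs from that genome cannot be told apart from the presence of a peak alone. The CBF genes are close copies of each other, and how the authors placed reads that match several copies is not stated, so values inside the genes are less certain than those between them. In bulk shoots, fewer nuclei with an open site and less opening in each nucleus cannot be told apart either.

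The labelled tissue was checked by peaks at marker genes. Of 6 photosynthesis genes, 4 had a peak in all 8 libraries and 2 in 7, while of 7 root genes CASP1 was listed in all 8, EXPA7 in 6, WOX5 in 5 and COBL9 in 4, and PLT1, PLT2 and RHD6 in none. Of all protein-coding genes, 45.2% had a peak in all 8 libraries. The shoot genes thus had peaks in more libraries than the root genes, but peaks at root genes were not absent. The lists held 13186 to 21540 nuclear peaks in RIL149 and 16952 to 19193 in RIL50, and RIL149 G3 lineage 2 had the fewest. Read totals are not in the lists. The pileup is the number of reads or fragments stacked over a base. Its median background on chromosome 4, which tracks depth and was recovered from the fold and p of each peak, was 13.9 and 20.6 in RIL149 G10, 11.8 and 12.5 in RIL149 G3, 20.5 and 8.88 in RIL50 G10, and 8.71 and 25.3 in RIL50 G3 (lineages 1 and 2). Depth thus differed within each line, and a site without a listed peak is one where no peak was detectable at that depth.

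The 42 peaks fell into 6 sites when peaks with summits less than 200 bp apart were joined. Since the gene table gives no strand, the sites are named by the lower and upper end of each gene, in the order of chromosome coordinates. CBF2 had 1 site, just beyond its upper end (chromosome 4, 13016151 to 13016636 on TAIR10, the span over all libraries). CBF3 had a site at its lower end (13017721 to 13018166) and another at its upper end (13019212 to 13019519). CBF1 had a site on its lower side (13021118 to 13021452), a site at its upper end and an outer site beyond it (13023191 to 13024060). The first 2 sites, which face each other across the space between CBF2 and CBF3, were listed in 4 of 4 RIL50 libraries, in both RIL149 libraries of generation 10 and in neither RIL149 library of generation 3. The other 4 sites were covered by a peak in all 8 libraries.

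**Figure D1:**
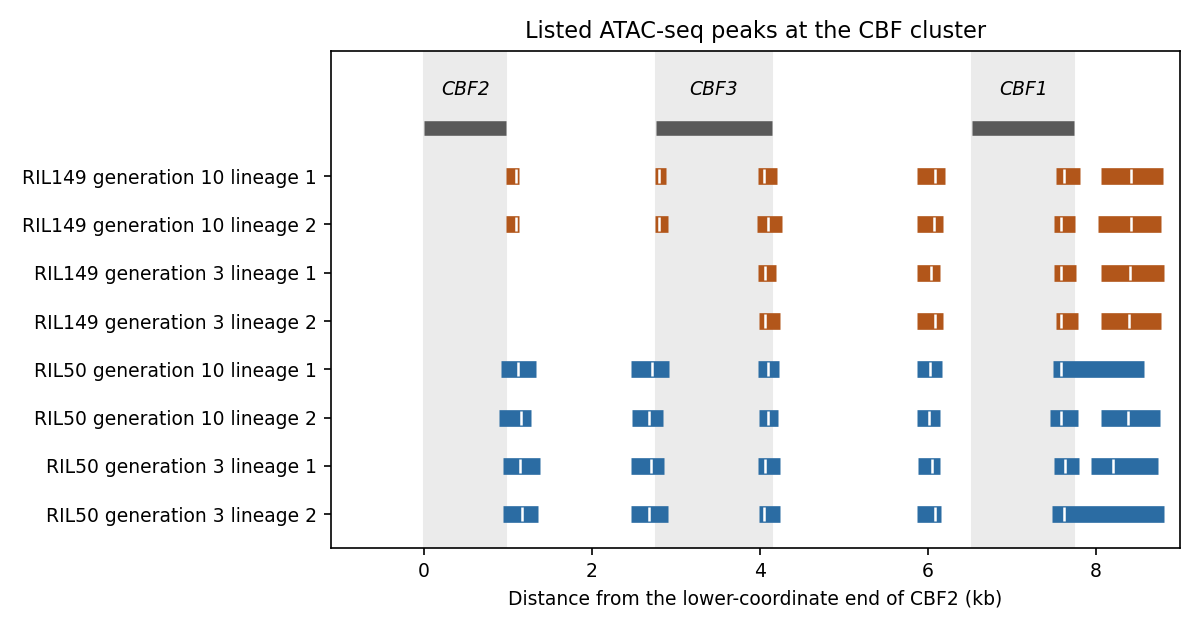
Listed peaks of the 8 libraries along the CBF cluster, with distance in kb from the lower-coordinate end of CBF2 on the x axis, 1 library per row, white ticks at the summits and grey bands for the genes. The sites above CBF2 and at the lower end of CBF3 are wide in RIL50, narrow in RIL149 G10 and not listed in RIL149 G3.

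The CBF2 gene had the least peak coverage of the cluster, and its coverage was lower in every RIL149 library than in any RIL50 library. Peaks covered 155 and 151 bp of the CBF2 window in RIL149 G10 and 0 bp in both RIL149 libraries of generation 3, against 417 and 383 bp in RIL50 G10 and 439 and 410 bp in RIL50 G3 (lineages 1 and 2). The 2 G3 libraries of RIL149 had no peak, and those of G10 lay well short of the RIL50 values. The means were 76.5 ± 88.3 bp in RIL149 and 412 ± 23.1 bp in RIL50 (SD, n = 4 each), a difference of -336 bp (RIL149 minus RIL50; two-sided exact permutation test over 70 arrangements, p = 0.0286, the smallest that 4 against 4 libraries can give). Adjusted over all 27444 genes by the Benjamini-Hochberg method, the exact permutation p was 0.835, so the difference did not pass. Across the genome 0 genes passed (0%), and 939 had an unadjusted p under 0.05. Since no exact permutation p can fall below 0.0286, a gene could pass only if most of the 27444 genes shared that p. The adjusted values thus do not show that the lines are alike. RIL149 lay below RIL50 without overlap at 2.55% of all genes and above it at 0.867%. Among the 20138 genes with a peak in any library, the median difference was -24.5 bp, and 1.48% of them had a lower value than CBF2.

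At CBF2 the peaks differed in extent more than in the place of the summit. In RIL149 G10 the peak ran from 13016226 to 13016380 in lineage 1 and from 13016230 to 13016380 in lineage 2, with the same upper edge and the same summit, 114 bp beyond the gene. In RIL50 the 4 peaks were 383 to 439 bp wide, ended between 13016533 and 13016636, and had their summits 137 to 189 bp beyond the gene. The authors' fold enrichment, a ratio of pileup to local background within each library, was 6.32 and 6.15 in RIL149 G10, 6.88 and 8.03 in RIL50 G10, and 10.3 and 7.84 in RIL50 G3. Those folds stood above 63.9% to 67.3% of each list's peaks in RIL149 and 75.2% to 84.0% in RIL50. The pileup at the summit was 93 and 132 in RIL149 G10, 150 and 95 in RIL50 G10, and 141 and 241 in RIL50 G3. Folds come from separately called lists and are described without a test.

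CBF3, the middle gene, repeated this contrast at its lower end. Its window was covered over 357 and 461 bp in RIL149 G10 and 213 and 256 bp in RIL149 G3, against 697 and 600 bp in RIL50 G10 and 652 and 694 bp in RIL50 G3. The lines again did not overlap, with means of 322 ± 111 bp in RIL149 and 661 ± 45.4 bp in RIL50 (SD, n = 4 each). The difference was -339 bp (two-sided exact permutation p = 0.0286; 0.835 after Benjamini-Hochberg adjustment over all genes), and 1.44% of genes with a peak had a lower value. CBF2 and CBF3 were thus 2 of the 3 members with RIL149 below RIL50 without overlap, which was so for 2.55% of all protein-coding genes. They are neighbours on either side of the same space and need not be independent.

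At the lower end of CBF3 the peak was 129 and 153 bp wide in RIL149 G10, against 444 and 378 bp in RIL50 G10 and 394 and 438 bp in RIL50 G3. Both RIL149 peaks began at the same base, 13018002, while the RIL50 peaks began between 13017721 and 13017727. The upper edges lay close together, at 13018130 and 13018154 in RIL149 and between 13018104 and 13018166 in RIL50. The summits lay 41 and 46 bp inside the gene in RIL149 and 38 to 75 bp below it in RIL50. The fold was 5.17 and 3.53 in RIL149 G10, 5.91 and 6.18 in RIL50 G10, and 6.68 and 4.81 in RIL50 G3. The widths of the lines did not overlap at this site, but the folds did.

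The edges of these 2 sites framed a stretch without listed peaks whose length differed between the lines. In both RIL149 libraries of generation 10 it ran from 13016380 to 13018002, with 1621 bp between the peaks. In RIL50 it measured 1134 and 1193 bp at generation 10 and 1084 and 1113 bp at generation 3. In RIL149 G3 neither site was listed, and the stretch below the upper end of CBF3 without a peak reached 16237 bp in lineage 1 and 24292 bp in lineage 2.

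The fold and width of these sites in RIL149 G10 can be set beside the peaks that the RIL149 libraries of generation 3 list elsewhere, although folds and widths of separately called lists are not on a shared scale. In lineage 1 of generation 3, 69.5% of the listed peaks had a fold below the lower RIL149 G10 value at CBF2, and in lineage 2, 73.7% did. For the lower end of CBF3 these shares were 34.2% and 34.8%. By width, 9.85% and 13.3% of the listed peaks were no wider than the narrower RIL149 G10 peak at CBF2, and 0.397% and 1.80% no wider than the narrower one at CBF3. The shortest peaks listed at all measured 129 and 126 bp in these libraries. The part of depth, fold and width limits in the missing listing of these sites was not tested.

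The same combination of libraries, 4 of RIL50, 2 of RIL149 G10 and 0 of RIL149 G3, was not rare in the genome. It was found at 486 of 24103 merged nuclear regions (2.02%), and among protein-coding genes at 396 (1.44%), CBF2 included. The mirror combination, with 4 RIL149 libraries, 2 of RIL50 G10 and 0 of RIL50 G3, was found at 15 regions (0.0622%). The RIL149 G3 lists held 17132 and 13186 nuclear peaks, against 19193 and 18447 in RIL50 G3 (lineages 1 and 2). The part of list size in this contrast was not tested. Of 31 regions within the cluster and 50 kb on either side, the 2 sites between CBF2 and CBF3 had this combination and no other region did, while 16 of the 31 had a peak in all 8 libraries. On chromosome 4 as a whole 86 of 3700 regions had it.

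**Figure D2:**
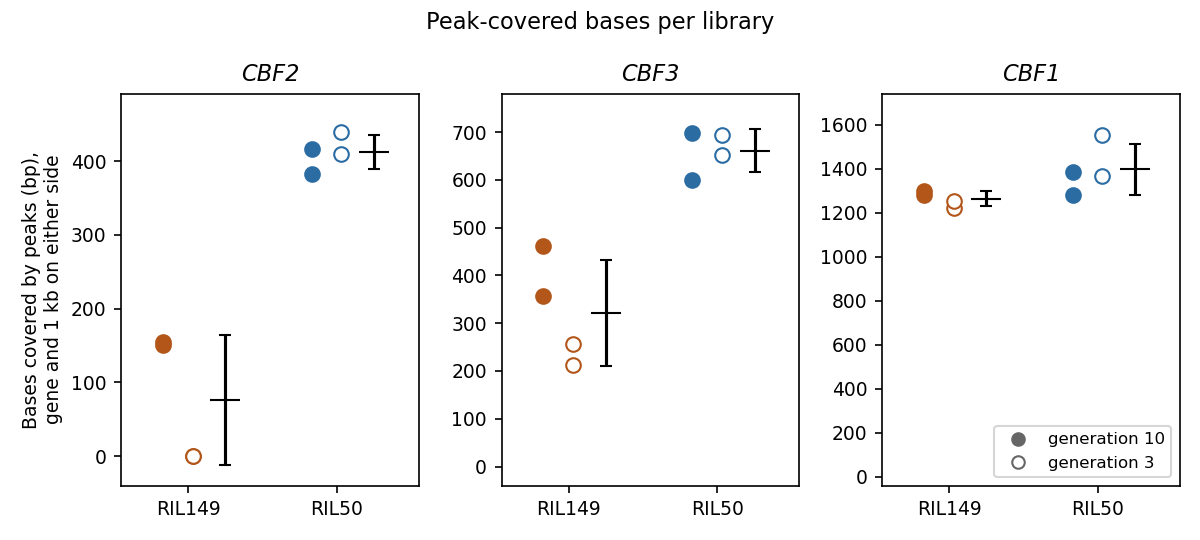
Bases covered by peaks in each gene and 1 kb on either side, in RIL149 and RIL50, with filled points for generation 10, open points for generation 3, and the mean ± SD of each line (n = 4) beside them. The lines are apart at CBF2 (0 to 155 bp in RIL149, 383 to 439 bp in RIL50) and CBF3, and overlap at CBF1.

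The upper end of CBF3 went the other way in fold. A peak 213 to 308 bp wide lay there in RIL149 and 222 to 258 bp wide in RIL50, with the summit 46 to 98 bp inside the gene in all 8 libraries. Its fold was 7.63 and 7.06 in RIL149 G10 and 7.52 and 7.18 in RIL149 G3, against 4.07 and 4.87 in RIL50 G10 and 4.63 and 4.31 in RIL50 G3. The lines did not overlap in fold. The pileups at the summit, which are not scaled for depth, overlapped. They were 170 and 245 in RIL149 G10, 141 and 106 in RIL149 G3, 142 and 86 in RIL50 G10, and 97 and 212 in RIL50 G3. The local background was 13.9 to 33.8 in RIL149 and 16.9 to 48.4 in RIL50. Its part in the fold difference was not tested. The fold stood above 71.0% to 81.3% of each list's peaks in RIL149 and 42.8% to 53.9% in RIL50. The widths of this site overlapped, with means of 251 ± 41.8 bp in RIL149 and 247 ± 16.96 bp in RIL50 (SD, n = 4 each).

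CBF1 had the widest peak coverage of the cluster. Peaks covered 1299 and 1282 bp of its window in RIL149 G10 and 1222 and 1254 bp in RIL149 G3, against 1387 and 1281 bp in RIL50 G10 and 1366 and 1556 bp in RIL50 G3. The lines overlapped, with means of 1264 ± 33.7 bp in RIL149 and 1398 ± 115 bp in RIL50 (SD, n = 4 each; difference -133 bp, two-sided exact permutation p = 0.0857, 1 after Benjamini-Hochberg adjustment over all genes). As a share of window length, coverage was 38.0% to 48.4% at CBF1, 6.28% to 20.6% at CBF3 and 0% to 14.7% at CBF2, in that order in each of the 8 libraries. Across libraries the ranges of CBF3 and CBF2 overlap, and the range of CBF1 lies above both. CBF1 and CBF3 had a peak in all 8 libraries, which was so for 45.2% of all protein-coding genes, and CBF2 in 6.

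The site on the lower side of CBF1 had its summit 447 to 513 bp from the gene. It was 277 to 328 bp wide in RIL149 and 267 to 299 bp wide in RIL50. Its fold was 6.88 and 6.17 in RIL149 G10 and 7.08 and 5.03 in RIL149 G3, against 4.50 and 5.48 in RIL50 G10 and 4.89 and 4.95 in RIL50 G3, so the lines overlapped through RIL149 G3 lineage 2. At the upper end of CBF1 the summit lay 111 to 154 bp inside the gene, at a fold of 5.17 to 7.67 in RIL149 and 6.75 to 8.42 in RIL50. The outer site was 708 to 754 bp wide in RIL149. In RIL50 it was a peak of its own in generation 10 lineage 2 and generation 3 lineage 1, at 708 and 801 bp. In RIL50 G10 lineage 1 and generation 3 lineage 2 it was joined with the upper-end site into a peak of 1088 and 1337 bp. Those were the RIL50 libraries with the higher background pileup, 20.5 and 25.3, against 8.88 and 8.71 in the others, and the part of depth in the joining was not tested.

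**Figure D3:**
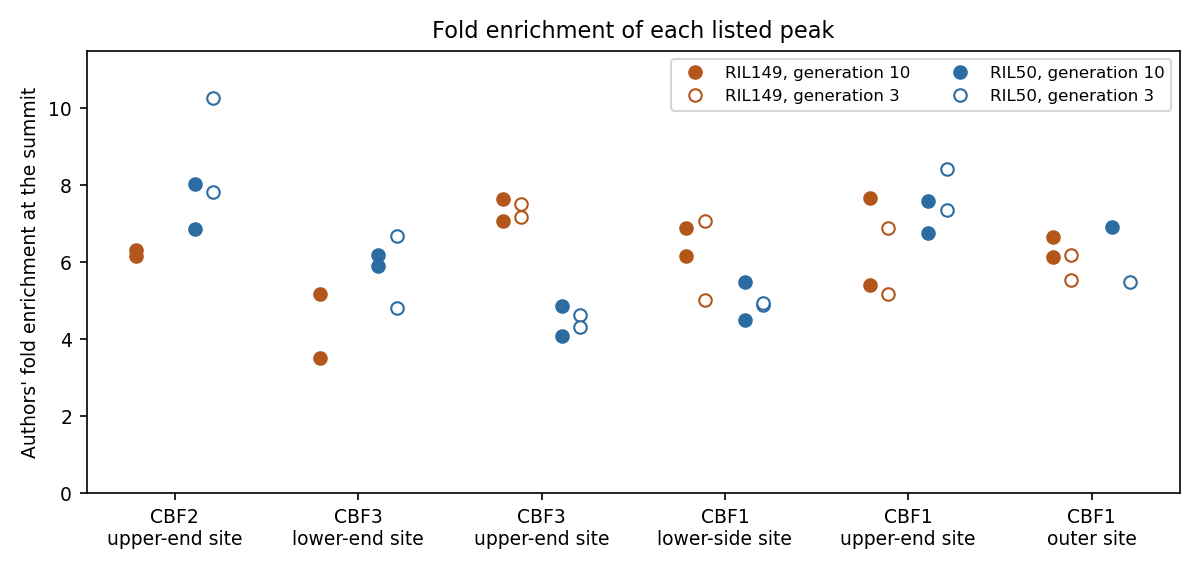
The authors' fold enrichment at the summit of each listed peak, by site in the order of chromosome coordinates, with RIL149 left of RIL50, filled points for generation 10 and open points for generation 3. RIL149 is lower at the CBF2 site and higher at the upper end of CBF3 (7.06 to 7.63, against 4.07 to 4.87 in RIL50).

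Generation was compared over both lines, since the plants were propagated from generation 3 to generation 10. At CBF2 coverage averaged 277 ± 143 bp at generation 10 and 212 ± 245 bp at generation 3 (SD, n = 4 each; two-sided exact permutation p = 0.629). At CBF3 it averaged 529 ± 150 bp at generation 10 and 454 ± 254 bp at generation 3 (exact permutation p = 0.60, n = 4 each). At CBF1 it averaged 1312 ± 50.5 bp at generation 10 and 1349.5 ± 151 bp at generation 3 (exact permutation p = 0.743, n = 4 each). After Benjamini-Hochberg adjustment over all genes each p was 1. Across the genome 0 genes passed, and 786 had an unadjusted exact permutation p under 0.05. Here too a gene could pass only if most genes shared the smallest p, so this does not show that the generations are alike. None of the 3 members had generations that did not overlap, which at all genes was so for 2.74% with generation 10 above and 0.124% with generation 10 below.

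At CBF2 the generation difference had opposite signs in the lines. Coverage at generation 10 minus that at generation 3 was 155 bp in lineage 1 and 151 bp in lineage 2 of RIL149, and -22 and -27 bp in RIL50. The RIL50 libraries of the generations overlapped, so a fall in both RIL50 lineages depends on their pairing. The difference between these changes was 177.5 bp, with an exact permutation p of 0.333 over the 6 arrangements of the 4 lineages, the smallest they can give. At CBF3 the changes were 144 and 205 bp in RIL149 and 45 and -94 bp in RIL50, and at CBF1 they were 77 and 28 bp in RIL149 and 21 and -275 bp in RIL50. The difference between the changes of the lines was 199 bp at CBF3 and 179.5 bp at CBF1, larger than at CBF2 and with the same exact permutation p. Within each generation the difference of the line means (RIL149 minus RIL50) kept its direction. It was -247 bp at generation 10 and -424.5 bp at generation 3 for CBF2, -239.5 and -438.5 bp for CBF3, and -43.5 and -223 bp for CBF1. At generation 10 the lines overlapped at CBF1, with 1299 and 1282 bp in RIL149 and 1387 and 1281 bp in RIL50. The labels name sublineages too, and in 3 of the 4 lineages the sublineages of the generations differ, so generation and sublineage cannot be told apart there.

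Peaks just outside the windows bound the cluster. On the side of ABCB28, the gene below CBF2, a peak lay 170 and 172 bp beyond the window in RIL149 G10, with folds of 2.42 and 2.17, and the nearest in the other libraries lay at least 7782 bp beyond it. On the side of RS40, a splicing factor gene above CBF1, a peak lay 300 to 434 bp beyond the window in 7 libraries and 3575 bp beyond it in RIL149 G3 lineage 2.

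The other DREB1 genes and the genes above and below the CBF genes in the cold pathway mostly had listed peaks. Of the 3 relatives, CBF4, which is known to respond to drought, and DDF1 had a peak in all 8 libraries. DDF2 had a peak in 3 RIL149 and 4 RIL50 libraries. Its window was covered over 0 to 432 bp in RIL149 and 470 to 781 bp in RIL50, with means of 178 ± 182 bp in RIL149 and 649 ± 134 bp in RIL50 (SD, n = 4 each; difference -471 bp, two-sided exact permutation p = 0.0286, 0.835 after Benjamini-Hochberg adjustment). DDF2 lies on another chromosome than the cluster. RIL149 lay below RIL50 without overlap at 2.55% of all protein-coding genes. This was so at the photosynthesis marker RCA too, with 991 ± 45.1 bp in RIL149 and 1108 ± 57.2 bp in RIL50 (SD, n = 4 each).

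Of 23 upstream regulators, 18 had a peak in all 8 libraries, 4 in some and 1, the ICE1 paralog SCRM2, in none. A peak in all 8 libraries was found at 45.2% of all protein-coding genes. None of the 23 had lines or generations that did not overlap, and at shares of 2.55% (RIL149 below RIL50) and 0.867% (above) over all genes such a count does not set the regulators apart. ICE1 had a peak in 3 RIL149 and 4 RIL50 libraries, with 263 ± 177 bp covered in RIL149 and 493 ± 165 bp in RIL50 (SD over 4 libraries each; exact permutation p = 0.0857). OST1, a protein kinase that acts on ICE1, had 406.5 ± 204 bp in RIL149 and 958.5 ± 375 bp in RIL50 (SD over 4 libraries each; exact permutation p = 0.0857). Of the clock genes, CCA1 had 743 bp on average in RIL149 and 746 bp in RIL50, and LHY had 1241 bp in RIL149 and 1200.5 bp in RIL50. The median line difference over the 23 genes was -32.0 bp, close to the -24.5 bp over the 20138 genes with a peak in any library; over all protein-coding genes, those without a peak included, it was 0 bp.

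Of 13 cold-regulated genes that CBF proteins act on, 11 had a peak in all 8 libraries, against the same 45.2% of all genes, and 2 in some. None had lines or generations that did not overlap, which at the shares over all genes given above does not set them apart either. RD29A, a widely used reporter of the pathway, had 304 ± 24.4 bp in RIL149 and 309.5 ± 23.7 bp in RIL50 (SD over 4 libraries each; exact permutation p = 0.80). COR15A, which encodes a chloroplast protein that protects membranes in freezing, had 378 ± 217 bp in RIL149 and 376.5 ± 149 bp in RIL50 (SD over 4 libraries each; exact permutation p = 1). RAP2.1 had a peak in 1 RIL149 library and 0 RIL50 libraries. The median line difference over the 13 genes was -19.0 bp, again beside -24.5 bp over all genes with a peak.

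**Figure D4:**
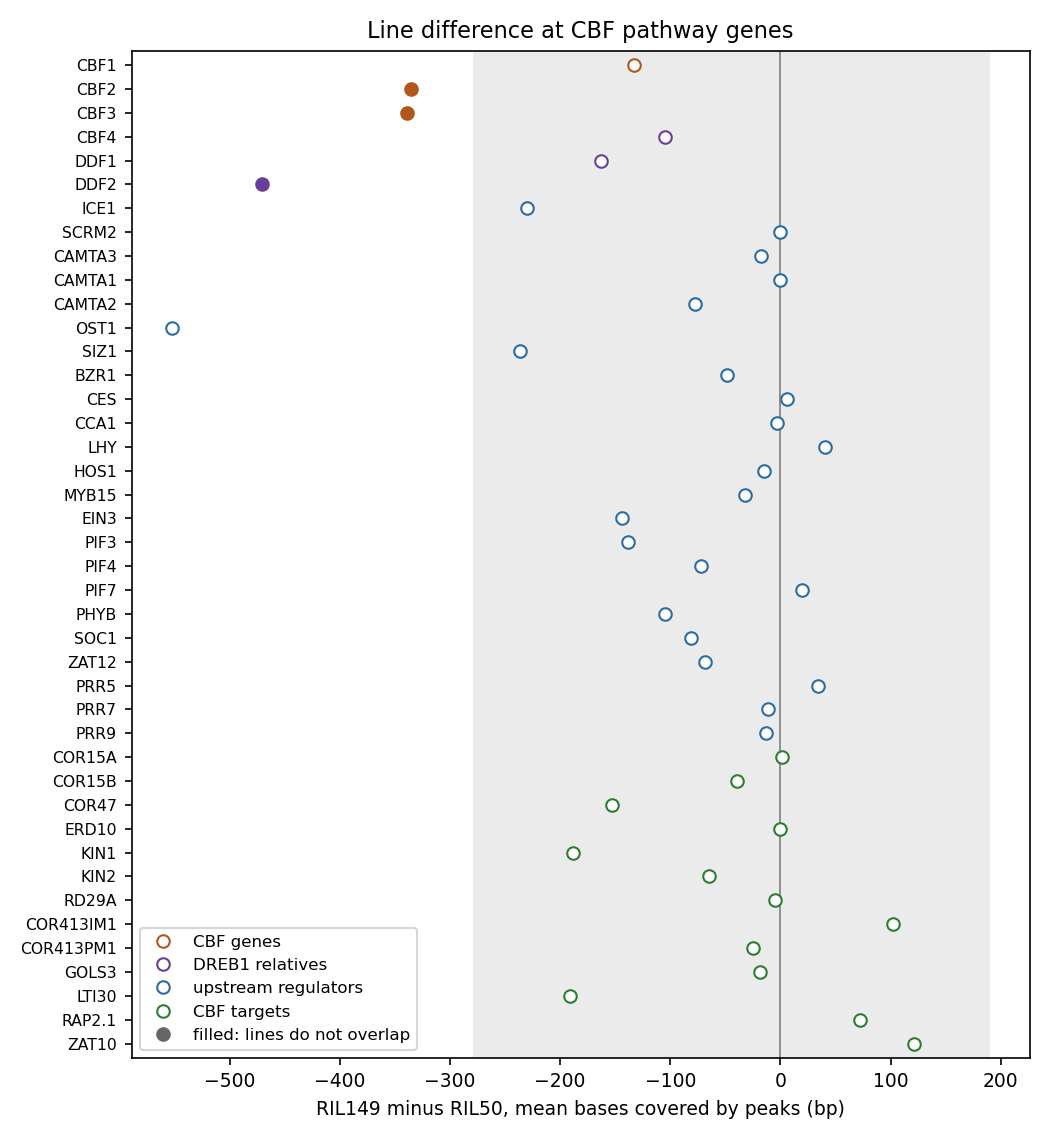
Difference in mean covered bases, RIL149 minus RIL50, for the CBF genes, their DREB1 relatives, upstream regulators and CBF targets, with a grey band over the central 95% of all genes with a peak (-278 to 189 bp). Of the genes shown, CBF2, CBF3 and DDF2, the filled points, are those whose lines do not overlap. The shoot and root markers are not shown.

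The genes whose pattern came closest to each CBF gene were found by the mean absolute difference in the share of the window covered over the 8 libraries, among 10369 protein-coding genes with a symbol. IRX15 on chromosome 3 and GSTU15 on chromosome 1 were closest to CBF2, at 1.61 and 1.65 percentage points. TUB4 on chromosome 5 and CIP7 on chromosome 4 were closest to CBF3, at 1.40 and 1.51 points. PSRP3/1 on chromosome 1 and PIL6 on chromosome 3 were closest to CBF1, at 1.87 and 1.93 points.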

How the data were processed

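Nuclei from about 200 mg of shoots were tagmented and sequenced as paired-end reads of 150 bp, per the labels' protocols. The submitters' processing notes list MACS2 2.2.9.1, BWA 0.7.17, Trimmomatic 0.39 and Picard, and the build TAIR10. How the Tn5 shift, mapping quality and organelle reads were handled is not given in the sources used here. Peaks were deposited by the authors as 1 list per library. Per the file headers these are narrowPeak files: the deposited fold is a ratio of pileup to local background at the summit, the deposited score is made from q, and p and q values were deposited as −log10. Start, end and summit of each peak were deposited as positions.

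Peaks of the 5 nuclear chromosomes were used, and bases covered per gene and 1000 bp on either side were compared with exact permutation tests over all 27444 protein-coding genes (Python 3.11.15, scipy 1.17.1). Simulated data with planted differences were used to test the code. Pileup and background were recovered by solving the Poisson relation of MACS2, and at the 42 CBF peaks 42 pileups came out within 0.01 of a whole number.

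The gene table was that of RefSeq for TAIR10.1, whose coordinates are not printed and which has no strand, so distances are from gene ends and not, as planned, from the gene start. In the part of chromosome 4 around the cluster, 34.8% of summits lay within 100 bp of a gene end, against at most 12.9% when shifted by 250 bp or more, up to 2000 bp. Identifiers matched for all 55 genes of the lists. No sequence is shown, since no genome was used here. Groups, generations and lineages follow the labels, and the lineage number was taken to pair libraries by descent. The generation numbers in the names of the 8 deposited files are each 1 lower than in the labels, and which count is right was not settled. Over 20138 genes the deviations of same-lineage libraries correlated at 0.0061 in RIL149 and -0.112 in RIL50. Covered bases thus showed no likeness of libraries by lineage, and the changes within lineages rest on the labels alone. The members, lists and tests were chosen with earlier results of these data known, and sites, edges and pileups were looked at after the values were seen. Named genes were the members, the lists, the gene on each side and the 2 genes closest to each member; TRM23, AT4G25433 and FWA were named after their values were seen.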

Additional observations from a re-analysis of the deposited data

Results flagged for a closer look

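CBF2 coverage moved in opposite directions between generations in the lines, higher at generation 10 in both RIL149 lineages and lower in both RIL50 lineages. In RIL50 the generations overlapped (417 and 383 bp at generation 10, 439 and 410 bp at generation 3). A fall in both RIL50 lineages thus depends on how the libraries are paired. The RIL149 change minus the RIL50 change was 177.5 bp (exact permutation p = 0.333, the smallest that the 4 lineages allow). It was 199 bp at CBF3 and 179.5 bp at CBF1 with the same p, so a difference of this size was not particular to CBF2. At CBF1, among the 4 generation 10 libraries, RIL50 lineage 1 (1387 bp) stood apart from the other 3 (1281 to 1299 bp). Its gap to the next library was 0.83 of the range, just over the critical value for 4 libraries. This library is one of those in which the upper-end and outer sites were joined into a single peak. By chance about 5% of groups exceed this value, and 12 were checked.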

How the results depend on the processing

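The line differences at CBF2, CBF3 and CBF1 were negative under all 6 other settings (windows of 500 and 2000 bp, a −log10 q of at least 5, a fold of at least 2, equal numbers of peaks per list, and summits in the window). The settings of q, fold and summit removed no CBF peak, so the differences under them were those already reported and are no separate check. At CBF2 only the windows of 2000 bp changed the line difference. The line differences ranged from -593.5 to -336 bp at CBF2, -670 to -339 bp at CBF3 and -180 to -133 bp at CBF1. The lowest values at CBF2 and CBF3 were those for windows of 2000 bp, which take in sites of the neighbouring gene. Leaving out each library gave -362 to -310 bp, -385 to -303 bp and -172 to -80.4 bp in the same order. At CBF2 and CBF3 the lines did not overlap with all 8 libraries, so leaving out a library could not make them overlap. The exact permutation p of 0.0286 there, the smallest that 3 against 4 libraries can give, was thus fixed and adds no support. At CBF1 the exact permutation p ran from 0.0286, without RIL50 generation 10 lineage 2, to 0.143, and after adjustment over all genes none passed. The generation differences changed sign more easily. Leaving out each library gave -6.50 to 139.8 bp at CBF2, below 0 without either RIL149 generation 3 library. It gave -5.25 to 155 bp at CBF3, below 0 without RIL149 generation 3 lineage 1, and -79.8 to 31.6 bp at CBF1, above 0 without RIL50 generation 3 lineage 2. With windows of 500 bp the CBF1 difference was 8.25 bp, and the cause was not tested. With windows of 2000 bp the generation difference was 217.5 bp at CBF2 and 136 bp at CBF3, and with equal numbers of peaks per list it was 36.8 bp at CBF3, against 64.3 and 75.0 bp as reported. With the replicate block (lineages paired, exact sign-flip test over 16 arrangements) the differences were 64.3, 75.0 and -37.3 bp at CBF2, CBF3 and CBF1, with exact p of 0.50, 0.375 and 1, and 0 genes passed. With the RIL50 lineages crossed, a pairing added after the data were seen, 0 genes passed too. The smallest exact sign-flip p over 16 arrangements is 0.125, so no gene could pass 0.05 under either pairing. Both counts were fixed by the design and say nothing about a generation effect. The libraries with a peak numbered 6 at CBF2 and 8 at CBF3 and CBF1 under every one of the 6 settings. Since the settings of q, fold and summit removed no CBF peak, these counts could not change under them. They are no separate check there. Nor could the count of 8 at CBF3 and CBF1 change with windows of 2000 bp, because a wider window loses no peak.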

Other observations

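Of the 5 protein-coding genes on the lower side of the cluster, TRM23 and AT4G25433 had RIL149 below RIL50 without overlap. At all protein-coding genes this was so for 2.55%, and these neighbours need not be independent. TRM23 had 134 bp covered on average in RIL149 and 258 bp in RIL50, and AT4G25433 had 327 and 658 bp. At both, RIL149 generation 3 lineage 2 was at 0 bp, while the other RIL149 libraries had 178 to 180 bp and 431 to 442 bp. The RIL50 libraries had 221 to 353 bp at TRM23 and 476 to 866 bp at AT4G25433, so the lines were narrowly apart. Of the 5 genes on the upper side, none had lines that did not overlap, and FWA, an imprinted gene known for epialleles, had no peak in any library.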
